A study of Arabidopsis thaliana with 4 samples.

Results

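GRP7 (AT2G21660, also CCR2) and GRP8 (AT4G39260, also CCR1) are a pair of related Arabidopsis thaliana genes for glycine-rich RNA-binding proteins whose transcripts are under clock control. They were chosen by their locus identifiers, as 2 of 27444 protein-coding genes on the 5 nuclear chromosomes. Every peak of the transcription factor RVE5 that overlapped either gene with 3000 bp added on both sides was taken. This gave 5 of the 2367 peaks in the deposited lists, 3 at GRP7 and 2 at GRP8.

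The peaks came from chromatin immunoprecipitation and sequencing (ChIP-seq) of seedlings that overexpress RVE5, a MYB-like factor of the REVEILLE family, fused to a MYC tag. The seedlings were 14 days old, had grown at 22 °C under cycles of 16 h light and 8 h dark, were moved to 29 °C for 12 h and were taken at zeitgeber time 12 h. There were 3 replicates precipitated with an antibody against MYC and 1 input library without antibody, all of the same overexpressing genotype, and each replicate had its own list of peaks. Neither the promoter that drives RVE5-MYC nor the number of lines is stated in the labels. They are also silent on whether each replicate had its own pool of seedlings, and the spread between replicates may then be technical. The series had no plants without the tag, and what the antibody brings down in such plants at these genes was not measured.

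GRP7 and GRP8 proteins carry an RNA recognition motif followed by a glycine-rich stretch. In Arabidopsis, the transcripts of both oscillate with an evening peak, and the morning factors CCA1 and LHY, relatives of RVE5, act on this rhythm. GRP7 protein also binds its own transcript and that of GRP8 and shifts them to a splice form that is degraded, so the pair forms a feedback loop downstream of the clock. GRP7 is known for roles in cold tolerance, flowering time and immunity.

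GRP7 had a peak in every replicate and GRP8 in replicates 1 and 2. Among all protein-coding genes, 1.81% had a peak within 3000 bp in all 3 replicates, 2.84% in exactly 2 and 4.65% in at least 2. In the single lists the shares were 5.59%, 6.61% and 7.02% for replicates 1, 2 and 3. Both genes therefore belonged to a small part of the genome, and GRP7 to the smaller one. They were chosen with these lists already known, so their counts are a description and carry no test.

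The peak at GRP7 lay on chromosome 2 of TAIR10, from 9266110 to 9266814 in replicate 1, from 9266172 to 9266799 in replicate 2 and from 9266167 to 9266792 in replicate 3. Its summit was at 9266621, 9266613 and 9266566. The 3 summits thus fell within 55 bp of each other, and the peaks had 621 bp in common out of a union of 705 bp. At 705, 628 and 626 bp they were wide for their lists, in which the median width was 302, 282 and 293 bp.

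The peak at GRP8 lay on chromosome 4, from 18275007 to 18275283 in replicate 1 and from 18274799 to 18275294 in replicate 2. Its summits, at 18275183 and 18275162, were 21 bp apart. The peak of replicate 1 was 277 bp wide and lay wholly within that of replicate 2, which was 496 bp wide. The shorter of the 2 was below the median width of its list and the longer above it.

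Both genes were marked at the same kind of place, across the end of the gene that has the higher chromosome coordinate. The gene spans are those of RefSeq assembly TAIR10.1, and distances between them and the TAIR10 peaks rest on nuclear positions being the same in both. At GRP7 the summit lay 64, 56 and 9 bp outside that end in replicates 1, 2 and 3. At GRP8 it lay 33 and 54 bp inside the end in replicates 1 and 2. All 5 summits were thus within 100 bp of a gene end, as were 25%, 27% and 24.3% of all summits in lists 1, 2 and 3, so this place was a common one. The gene table used here gives no strand, and whether the end is the start of transcription was not analysed here.

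The listed peaks of the paralogs differed in how they were spread over that end. The share of the peak's length inside the gene was 63.5%, 61.5% and 62.5% at GRP7, and 75.8% and 84.3% at GRP8, so the ranges did not overlap. This share depends on the called peak borders, and the 2 GRP8 peaks were 277 and 496 bp wide. The share at other peaks was not compared. From the summit, the GRP7 peak reached 511, 441 and 399 bp towards lower coordinates and 193, 186 and 226 bp towards higher ones. The GRP8 peak reached 176 and 363 bp towards lower coordinates and 100 and 132 bp towards higher ones. In all 5 peaks the longer arm was the one over the gene body. An exact test of 3 lists against 2 cannot give a two-sided p below 0.2, so none of these differences was tested.

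**Figure D1:**
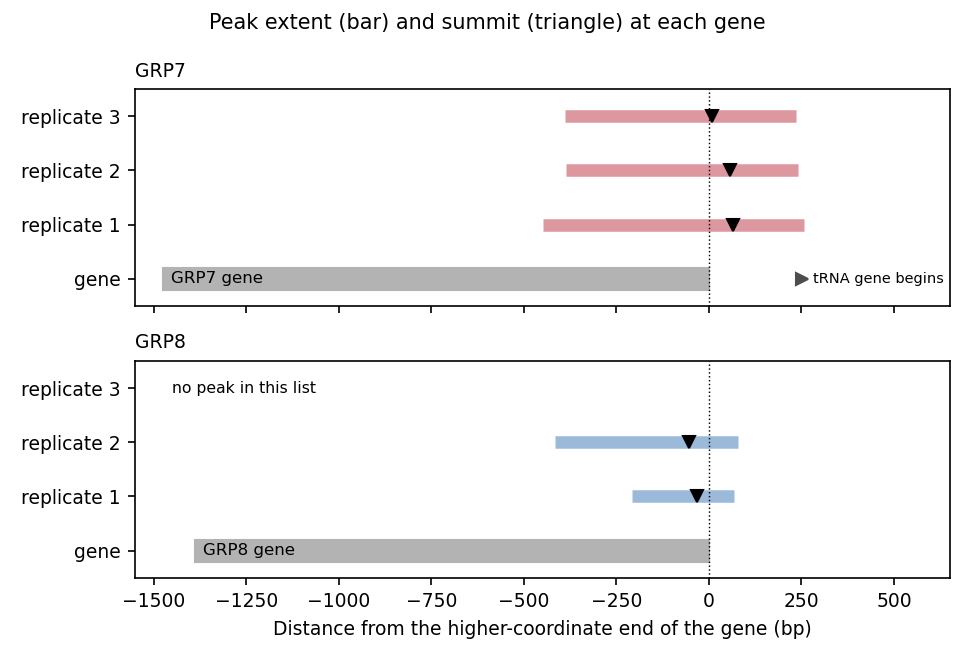
Extent (bars) and summit (triangles) of each listed peak, in bp from the higher-coordinate end of GRP7 (top) and GRP8 (bottom), with the gene span in grey and a row for each ChIP replicate. The GRP7 summits lie 9 to 64 bp outside the gene end and the GRP8 summits 33 to 54 bp inside it, and replicate 3 has no peak at GRP8.

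The pileup, which is the number of reads stacked at the summit, was 106 at GRP7 in replicate 1, 109 in replicate 2 and 125 in replicate 3, a mean of 113 ± 10.2 (SD, n = 3). At GRP8 it was 59 in replicate 1 and 61 in replicate 2, a mean of 60 ± 1.41 (SD, n = 2). The 3 values of GRP7 were all above both values of GRP8. Depth per library is unknown, so pileups of different lists, and the means over them, are not on a common scale. With an exact 95% Poisson interval, which covers counting error only and takes each read as independent, the GRP7 pileup ran from 86.8 to 128 in replicate 1, from 89.5 to 131 in replicate 2 and from 104 to 149 in replicate 3. For GRP8 the intervals were 44.9 to 76.1 and 46.7 to 78.4, so within each of the lists that held both genes the intervals did not overlap. They are much wider than the SD of the 2 GRP8 values, which is thus no measure of precision.

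Within a list, the pileup at GRP7 was 1.80 times that at GRP8 in replicate 1 and 1.79 times in replicate 2. The authors' fold over the local background was 5.62, 5.44 and 6.23 at GRP7 in replicates 1, 2 and 3, and 3.14 and 3.09 at GRP8 in replicates 1 and 2. On the log2 scale, the fold of GRP7 exceeded that of GRP8 by 0.84 in replicate 1 and 0.82 in replicate 2, a mean difference of 0.83 ± 0.0175 (SD, n = 2). The ratio of the paralogs was therefore nearly the same in both lists that allow the comparison. The counting error of each pileup, given above, is much larger than this closeness, so the SD of 2 values is no measure of precision. Only lists with a peak at GRP8 could enter. An exact test over 2 lists cannot give a two-sided p below 0.5. Replicate 3, with the highest fold at GRP7, had no listed peak at GRP8, so its ratio is not known.

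The local background of the paralogs was almost equal, so the difference in fold came from the pileup. In these lists the fold is the pileup plus 1 over the background plus 1, which gives the background that was used for each peak. It was 18.04 reads at GRP7 and 18.14 at GRP8 in replicate 1, 19.2 and 19.1 in replicate 2, and 19.2 at GRP7 in replicate 3. These backgrounds were high for the lists, where the median was 14.0, 15.0 and 15.4 reads. In replicate 1, 93.9% of the peaks had a lower background than the GRP7 peak and 94.97% a lower one than the GRP8 peak. In replicate 2 the shares were 96.4% and 96.3%, and in replicate 3 it was 91.8% for GRP7. The library behind this background is not named in the sources used here.

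**Figure D2:**
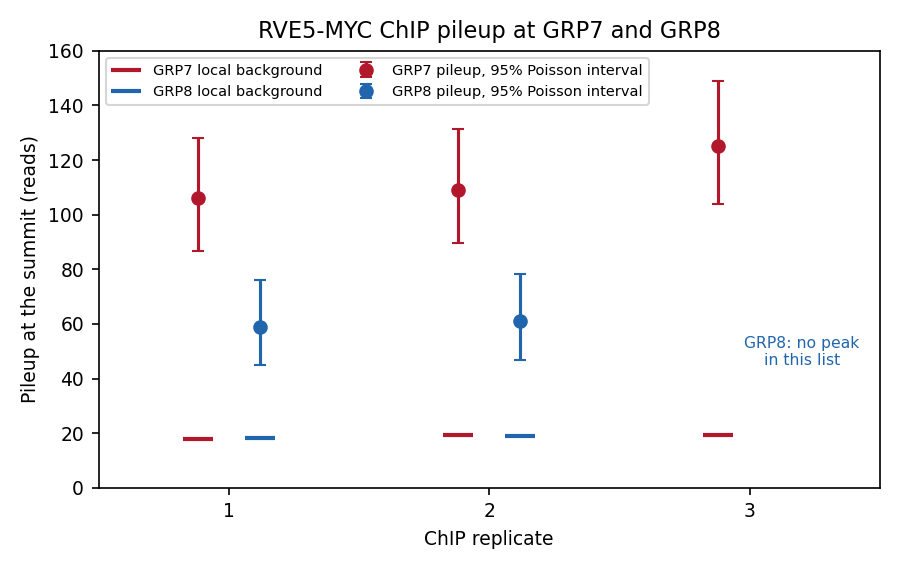
Pileup at the summit (points, in reads, with exact 95% Poisson intervals for counting error) and local background (horizontal marks) at GRP7 in red and GRP8 in blue, for each ChIP replicate. GRP7 has 106 to 125 reads and GRP8 59 and 61, over backgrounds of 18.04 to 19.2 reads at both genes.

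**Figure D3:**
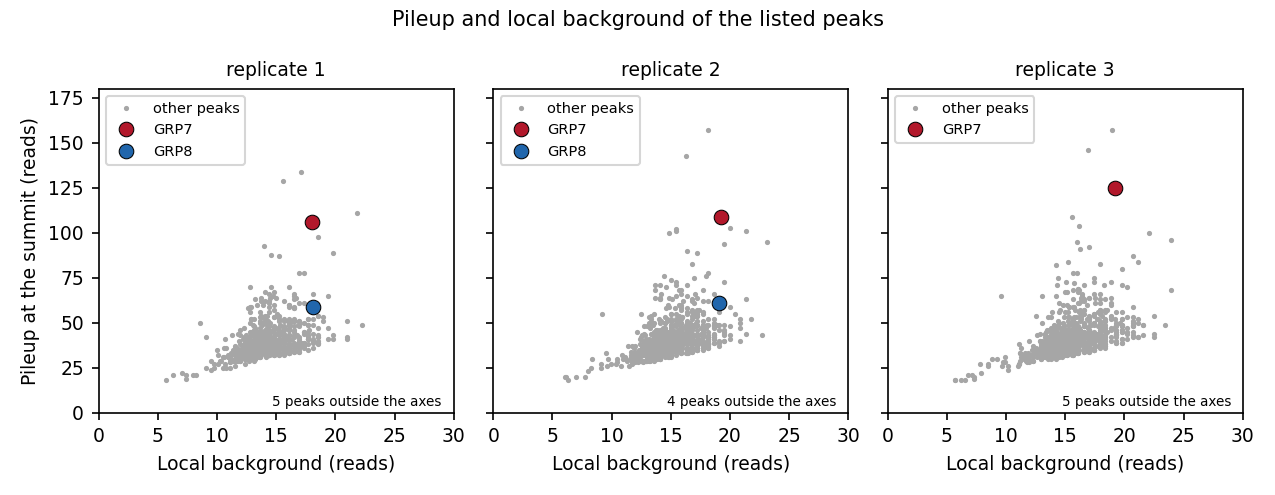
Pileup at the summit against local background, both in reads, for the listed peaks of each replicate, with GRP7 in red and GRP8 in blue. The axes end at 180 and 30 reads, and the peaks outside them, 5, 4 and 5 in replicates 1, 2 and 3, are not drawn; GRP7 in all 3 plots and GRP8 in those of replicates 1 and 2 sit towards the high-background side of the cloud, GRP7 above GRP8.

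In the order of folds within each list, GRP7 stood at rank 5 of 676 peaks in replicate 1, rank 7 of 827 in replicate 2 and rank 5 of 864 in replicate 3. GRP8 stood at rank 115 in replicate 1 and rank 126 in replicate 2. These ranks put GRP7 in the top 0.740%, 0.846% and 0.579% of the lists and GRP8 in the top 17.0% and 15.2%. Between the paralogs lay 109 peaks in replicate 1 and 118 in replicate 2. By pileup alone GRP8 stood higher, at rank 51 and rank 55, which put it in the top 7.54% and 6.65%. GRP7 was at rank 9, 7 and 8 by pileup, so it stayed near the head of the lists by either measure.

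The peaks nearest in fold to GRP7, the 3 above and the 3 below it in each list, made 18 peaks in 10 regions, and all 10 regions had a peak in all 3 lists. Their nearest genes were the clock gene PRR7, the clock regulator COR27, the stress-response zinc finger gene RHL41 (also ZAT12), the B-box genes BBX8 and BBX13, GTE7, AT2G30600, AT4G30650, AT5G29560 and AT4G06479. The summits nearest to AT5G29560 and AT4G06479 lay 3027 to 3032 bp and 10757 to 10761 bp from the gene. At PRR7 the fold was 6.25 in replicate 2, at rank 4 with GRP7 at rank 7, and 6.13 in replicate 3, next below GRP7. At COR27 it was 5.42 in replicate 1 and 5.25 in replicate 2, below GRP7 in each. PRR7 in replicate 1 and COR27 in replicate 3 were not among the 3 peaks above or the 3 below GRP7.

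The 12 peaks nearest in fold to GRP8 lay in 12 regions, of which 5 had a peak in all 3 lists, 3 in 2 lists and 4 in 1 list. The 5 had as their nearest genes the polyubiquitin gene UBQ10, the jasmonate repressor gene TIFY7 (also JAZ9), AT4G27560, AT3G47550 and AT3G41762. Over all 1674 regions of the merged lists, 11.9% had a peak in all 3 lists, 17.2% in 2 and 70.9% in 1. These shares count each region once. The peaks near GRP7 and GRP8 were drawn from single lists, which favours regions found in several lists. The counts near the pair are thus not on the same footing as these shares, and no excess can be read from them. Of the 199 regions in all 3 lists, 114 had a lower mean fold than GRP8. The mean of GRP8, 3.11, covers only the 2 lists in which it had a peak, while theirs covers 3.

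**Figure D4:**
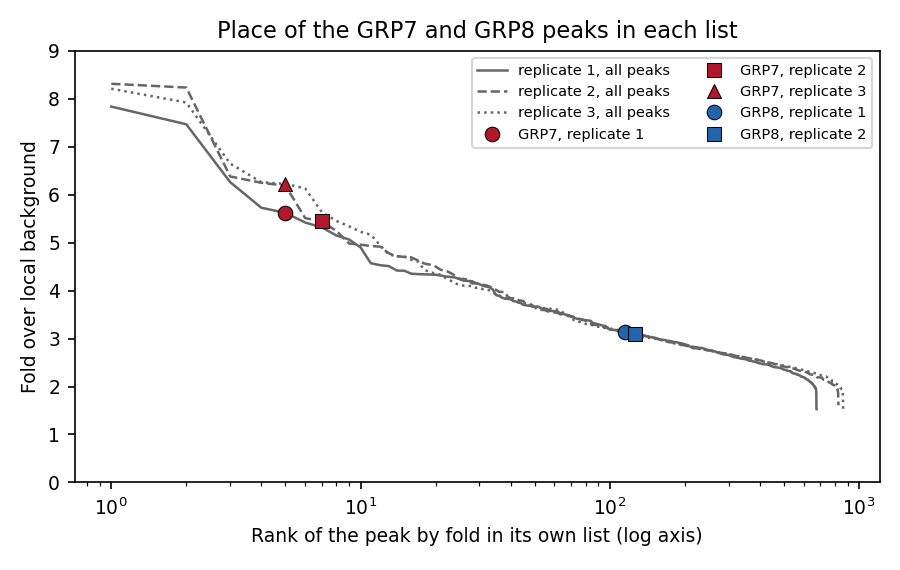
Fold over the local background against the rank of the peak by fold in its own list (log axis), with a grey line for all peaks of each replicate and marks for GRP7 (red) and GRP8 (blue). GRP7 stands at ranks 5 to 7 on the steep part of each curve and GRP8 at ranks 115 and 126 on the flatter part.

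The list of replicate 3 had no peak within 3000 bp of GRP8. It was the longest list and had the highest pileup at GRP7. Its nearest peak to GRP8 was 14278 bp away from the gene. The numbers of its peaks ran from 1 to 864 without a gap. In that list, 80 peaks had a local background of 18 to 20 reads, like that of GRP8 in the other lists, and 70 of these had a pileup below 59, with 36 as the lowest. The GRP8 pileups of replicates 1 and 2, 59 and 61, were above that lowest value, but they come from other libraries and depth per library is unknown. Why replicate 3 had no listed peak at GRP8 was not tested. The pileup at GRP8 in replicate 3 itself is not known here.

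Regions with a p-value as good as that of GRP8 in 2 lists usually had a peak in the remaining list too. Taking its lower −log10 p-value in the authors' lists, 14.1, as the minimum, 56 regions reached it in both replicates 1 and 2. Of these, 55 had a peak in replicate 3 (98.2%), and GRP8 was the 1 region without. The minimum was GRP8's own value, so the gene was in this set, at its edge, by construction. Its lack of a peak in replicate 3 was also known beforehand, so GRP8 being a region without is no result. Regions that reached it in replicates 2 and 3 numbered 60, of which 59 had a peak in replicate 1, and the region without was the one nearest to WRKY22. For replicates 1 and 3 the numbers were again 60 and 59, and the region without a peak in replicate 2 was nearest to AT3G41762, on chromosome 3 from 14197284 to 14197505. That region is not the one named above for AT3G41762, and its fold was 2.07 and 2.12, well below that of GRP8, since a p-value also grows with the pileup. WRKY22 was named after its values were seen. Each list therefore lacked 1 such region, which for replicate 3 was GRP8 itself, fixed by the choice of the minimum. Replicate 2 did have a peak close to the region it lacked, from 14196529 to 14197077 with a pileup of 715. The pileup of the lacking region was 595 in replicate 1 and 671 in replicate 3. With the minimum set at GRP8's own value, this tally cannot show whether replicate 3 was like the other lists.

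The genes next to the pair on the chromosome were counted as well, since a peak can lie within reach of several genes. On the lower-coordinate side of GRP7, AT2G21655 lay 2012 to 2074 bp from the GRP7 peak, and on the other side the protein-coding gene AT2G21680 lay 916 to 938 bp from it. Next to GRP8, RL1 (AT4G39250, also RSM2), a gene for a RADIALIS-like SANT/MYB protein, lay 2878 and 2670 bp from the GRP8 peak, and AT4G39270 lay 1028 and 1017 bp from it. All 4 genes fell within 3000 bp of these peaks, but GRP7 and GRP8 were the protein-coding genes that the peaks overlapped. A relative of RL1, MEE3 (AT2G21650, also RSM1), was the second protein-coding gene on the lower side of GRP7, at 5413 to 5475 bp from the peak, and was named after its place was seen. The closest other peak of the same list lay 17941 to 23779 bp from the GRP7 peak and 47153 to 47280 bp from the GRP8 peak. No other peak of the same list was thus within 3000 bp of either, and the spacing of other peaks was not compared.

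A transfer RNA gene, AT2G21670, lay beside the higher end of GRP7 with 251 bp between the genes, and the GRP7 peak of replicate 1 overlapped it by 6 bp. In replicates 2 and 3 the peak ended 10 and 17 bp short of it, and the summits lay 188, 196 and 243 bp from it in replicates 1, 2 and 3. Of 625 transfer RNA genes, 2 (0.32%) had a peak within 300 bp in all 3 lists and 17 (2.72%) in at least 1. The other of the 2 was AT5G02815, and both were named after their values were seen. Of protein-coding genes, 0.718% had a peak within 300 bp in all 3 lists and 5.59% in at least 1. Both shares were thus lower for transfer RNA genes, which are shorter, and this difference was not tested. At GRP8 the next transfer RNA gene on the higher-coordinate side was 18563 bp away.

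The relatives of the pair were counted next. In a list of 11 genes for glycine-rich RNA-binding proteins and the related RZ-1 zinc finger proteins, the pair included, GRP7 and GRP8 had a peak in at least 2 replicates and the other 9 genes did not. With 4.65% of all protein-coding genes reaching this, a count of 0 among 9 genes is near the background and says nothing of the family. GRP4, whose protein also has an RNA recognition motif and a glycine-rich stretch, had a peak in replicate 3 only. Its fold was 1.999 with a pileup of 35, and it lay 2523 bp from the gene. In that list 96.4% of the peaks had a fold at least as high. The remaining 8, among them GRP2, GRP3 and the RZ-1 genes, had none, and 1 of these, GRP1, is annotated as a transcribed pseudogene. The list was drawn up knowing that GRP7 and GRP8 have peaks, and its count with the pair is no result. Of its other 9 genes 1 had a peak in at least 1 replicate, which is close to the 12.8% of all protein-coding genes.

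A further list held 10 splicing regulators that are linked to the clock or to temperature, such as the splicing cofactor SKIP, the arginine methyltransferase PRMT5 and the spliceosome factor STIPL1. None had a peak in at least 2 replicates, against 4.65% of all protein-coding genes. By a rough bound of 3 over the number of genes, a count of 0 among 10 genes still permits a share of up to 30%. No difference from the other genes can thus be read from it. PTB1, a polypyrimidine tract-binding protein that regulates splicing, had a peak in replicate 3 only, 1544 bp from the gene, with a fold of 2.54 and a pileup of 43. At the depth of these lists, no recurrent peak was found near these splicing regulators.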

How the data were processed

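Per the labels, 3 ChIP replicates and 1 input were sequenced. The deposited data used here are 1 peak list per ChIP replicate on TAIR10, and the submitters' processing notes name CASAVA 1.4. How reads were aligned, how peaks were called and whether the input served as control is not given in these sources. Per the file headers, each list gives positions in bp, the summit, the pileup (a read signal), a fold over background, and −log10 p-values and q-values. Library totals are unknown. For all 676, 827 and 864 peaks, a Poisson upper tail at the background taken from the deposited fold gave the authors' −log10 p-value within 0.01. Positions are 1-based.

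Gene spans came from RefSeq TAIR10.1. A peak counted for a gene when it overlapped the span with 3000 bp added. Peaks sharing at least 1 bp between lists were merged into regions. No test was run, since 1 group has lists and scores per peak describe a peak in its own list. Ranks are the number of peaks with an equal or higher value. The counting code was tested on simulated peaks. The motif search planned for the promoters was not run, as no sequence was used here. The symbol GEMIN2 was not in the gene table for AT1G54380. The members and the gene lists were chosen with earlier results of these data known. Genes named are the pair, the genes next to it, list genes with a peak, and nearest genes of recurrent peaks close in fold. Python 3.11.15, pandas 2.3.3 and SciPy 1.17.1 were used.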

Additional observations from a re-analysis of the deposited data

How the results depend on the processing

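Of 67 alternatives, all planned, 14 moved their value by over 1.5 times (counts) or over 1 SD (other values). Many of the other 53 could not have done so and say nothing of stability: leaving out 1 list cannot move a mean of 2 or 3 lists by 1 SD (21 values), a wider flank cannot lose a peak, and GRP8 has none to lose in replicate 3. GRP7 had a peak in 3 replicates and GRP8 in 2 with flanks of 0, 1000 and 5000 bp, in the 50% of peaks with the best p-value in each list, with a fold of at least 3 and with summits within 100 bp. Leaving out 1 replicate, GRP8 had a peak in 1 to 2 of those left, and 1 to 2 genes of the glycine-rich and RZ-1 list had a peak in at least 2; without replicate 1 or without replicate 2 the value was 1 for both. Ranked by p-value and by pileup, GRP7 was on average in the top 1.11% and 1.03%, and not 0.722%, and GRP8 in the top 10.8% and 7.10%, and not 16.1%. The number of all protein-coding genes with a peak in all 3 replicates, 496, became 135, 276 and 749 with flanks of 0, 1000 and 5000 bp, 172 with a fold of at least 3, and 724 to 789 leaving out 1 replicate, where only 2 lists had to hold a peak. No paired analysis was possible because the 3 ChIP lists used here form 1 group of samples; the paralogs were only set side by side within a list. Depth per library is unknown, so the missing GRP8 peak of replicate 3 cannot be set against the reads sequenced.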
